A study of Columba livia with 6 samples.

Results

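The zona pellucida loci of the pigeon ovary were taken as the loci named ZP1 or ZP2 together with those whose protein was described as a zona pellucida sperm-binding protein, which gave 8 of the 34346 loci in the table. They were ZP1, ZP2, 4 loci described as zona pellucida sperm-binding protein 3 (LOC102094992, LOC102086650, LOC102089886 and LOC102095173, called ZP3-described below) and 2 described as zona pellucida sperm-binding protein 4 (LOC102095495 and LOC110356786, called ZP4-described). Whole ovaries of 6 untreated, sexually mature domestic pigeons (Columba livia) aged 2 years were compared by RNA sequencing. The 3 birds HP1 to HP3 were high egg producers and the 3 birds LP1 to LP3 (labelled ovary 4, 5 and 6) low egg producers, and all hatched together and were kept in 1 flock. Each library was made from 1 bird's bulk tissue after ribosomal RNA was removed, with a kit that marks the strand, so a lower value can come from fewer cells of a type or from less RNA per cell, and these cannot be told apart. The position of each ovary in the laying cycle is not given in the sources used here.

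The egg coat is the extracellular layer around the oocyte that sperm bind and must pass. It is a meshwork of glycoproteins which join through a shared zona pellucida domain, and in birds it forms the inner perivitelline layer on the yolk surface. In the chicken, ZP1 is made by the liver under estrogen and carried to the follicle in the blood, ZP3 is secreted by the granulosa cells around the oocyte, and ZP2 is expressed by the oocyte itself. In the mouse the zona genes are transcribed in the growing oocyte.

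The total counts per ovary lay between 97875183 and 108669967. Counts were scaled to counts-per-million (CPM) with TMM factors between 0.987 and 1.02. A floor given below covers counting error only and takes each count as a single read, which was not checked. Where values of a group are listed without names, they stand in the order of ovary 1, 2 and 3 of that group. Of the marker genes of the labelled tissue, 13 of the 15 oocyte list genes and 10 of the 10 granulosa list genes were found. All of these passed the filter on low values, which is set on the mean over the ovaries. Each of them had counts in every ovary, the fewest being 18 for INHA in HP2. Genes of other tissues were found too, such as 8 of the 10 kidney and 9 of the 10 hepatocyte list genes. Finding markers therefore does not identify the tissue. HP2 stood apart from the other libraries. In HP2, 69 tested loci were at least 10-fold above each of the other 5 ovaries with at least 1 CPM, whereas the count was 12 to 29 in each of the other ovaries. All 10 tested loci of a kidney marker list were highest in HP2, where their summed level was 612 CPM, compared with 97.7 and 114 CPM in the other HP ovaries and 72.9 to 111 CPM in the LP ovaries. This list was chosen with earlier results of these data known, so it is no separate support that HP2 stood apart. Its 10 loci stand for 8 genes, and the LRP2 locus alone gave 396 CPM in HP2.

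Of the 8 loci, ZP1 was the only one with a large difference between the groups, and it came from HP2 alone. The other 7 were detected in all 6 ovaries, and their HP and LP ovaries overlapped. None of the 8 was called at an adjusted p under 0.05 in the quasi-likelihood test of edgeR, with p-values adjusted by the Benjamini-Hochberg method over 28274 tested loci, of which 3 were called (0.0106%). In the same test 1 of the 8, ZP1, had an unadjusted p under 0.05, against 8.24% of all tested loci. ZP1 was also the 1 member past the limits of an unadjusted p under 0.05 and an absolute log2 ratio of mean FPKM of at least 1. These limits were met by 3.11% of tested loci in either direction and by 2.09% as higher in HP, shares from which nothing is read here, because ZP1 passed the filter through HP2 alone and its high value there was known beforehand. DESeq2 and limma on log2(FPKM + 1) or log2(FPKM + 0.1) each gave 0 members at an adjusted or an unadjusted p under 0.05, but DESeq2 gave no p for ZP1. The values of the HP and LP ovaries did not separate for any of the 8 loci, compared with 14.6% of tested loci whose groups did not overlap. The fit placed 6 of the 8 loci (75.0%) higher in HP, against 49.0% of all tested loci, and the median log2 fold change was 0.09 for the members and −0.01 for all tested loci. Nothing is read from this share, because it counts ZP1 and loci whose direction hung on 1 ovary. LOC102094992 was at −0.0065 without HP2, and LOC102089886 and LOC102095495 were at −0.21 and −0.014 without HP3. All 8 passed the filter of a mean FPKM of at least 0.1, but ZP1 did so only through HP2.

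**Figure D1:**
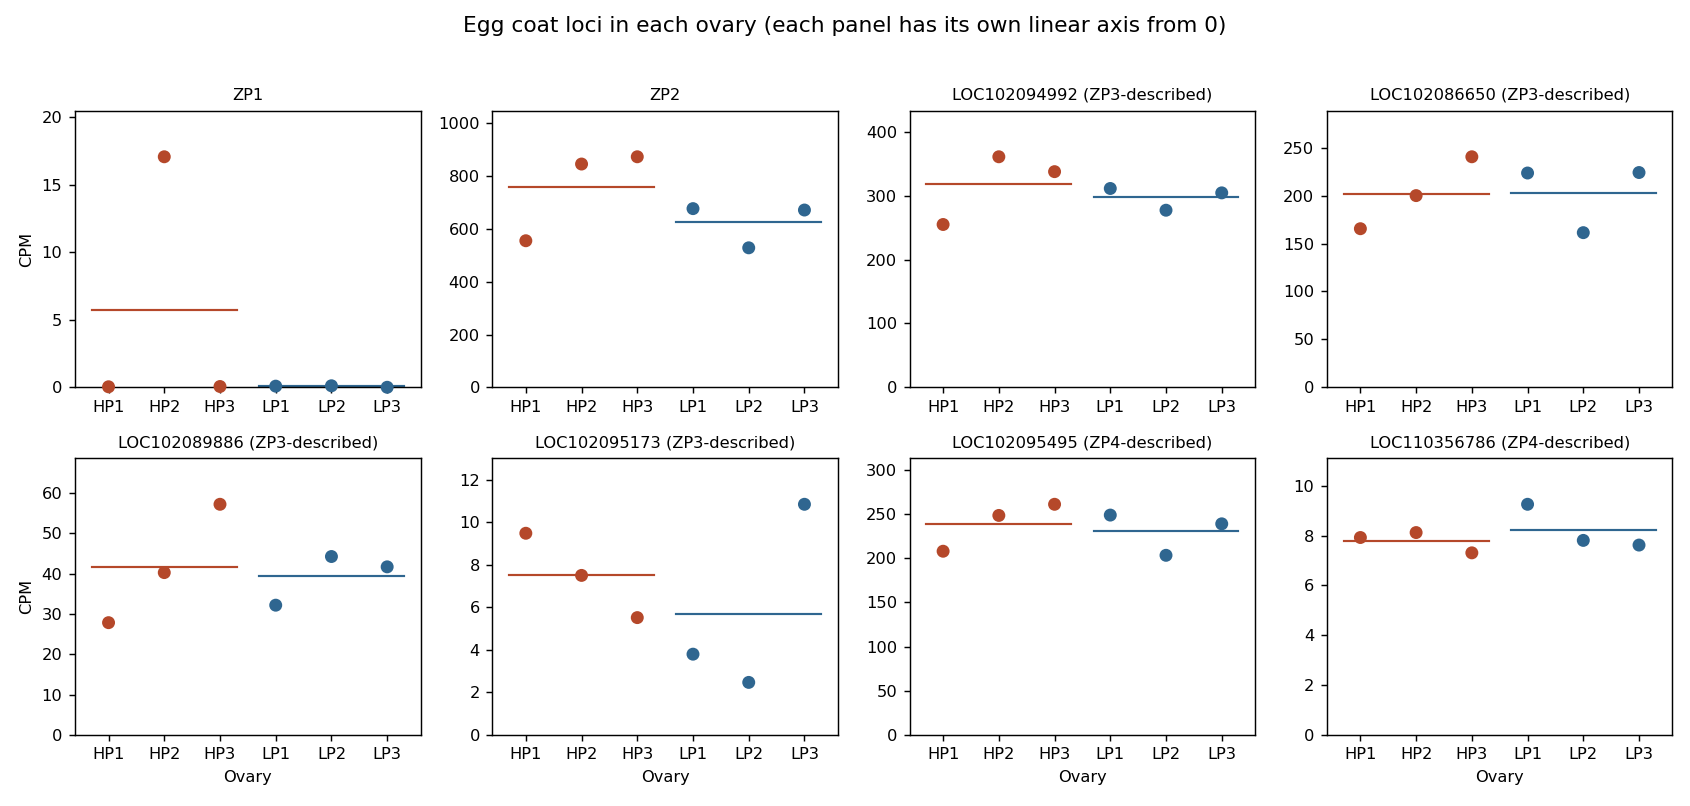
Level of each of the 8 egg coat loci in each ovary, in counts-per-million (CPM) on a linear axis from 0 that differs between panels. Points are single ovaries (red HP, blue LP) and lines are group means. ZP1 stands at 17.1 CPM in HP2 and at 0.111 CPM or less in the other 5 ovaries, whereas the HP and LP points of the other 7 loci overlap.

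ZP1 encodes a ZP protein that cross-links the filaments of the coat in the mouse. The locus (MSTRG.20503) lies on scaffold NW_004973678.1 of the Cliv_1.0 assembly, from 44287 to 47482 on the minus strand, and holds 1 transcript. Its counts were 4 in HP1, 1721 in HP2 and 6 in HP3, and 8 in LP1, 11 in LP2 and 0 in LP3. The 0 of LP3 allows up to 3 counts at that depth. HP2 was thus the single high ovary, and the remaining HP ovaries lay inside the range of the LP ovaries. In CPM the values were 0.036, 17.1 and 0.057 in the HP ovaries and 0.083, 0.111 and 0 in the LP ovaries. The level in HP2 was 305-fold that of the other 5 ovaries together (1721 against 29 counts), which describes 1 library and not the groups, since ZP1 was known to be high in 1 ovary when the loci were chosen.

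The fitted log2 fold change of ZP1 between HP and LP was 6.46 (SE 2.57, 95% interval 0.31 to 12.6), with an unadjusted p of 0.0421 and an adjusted p of 0.595 in edgeR. An exact two-sided permutation test of log2(CPM + 1) gave p = 0.7, in a design of 3 against 3 that cannot go below 0.1. Without HP2, ZP1 fell below the filter, and in a fit of 5 ovaries without any filter its log2 fold change was −0.45 (SE 1.72, 95% interval −4.65 to 3.75, adjusted p = 0.987 in edgeR). The unadjusted p of edgeR also rose above 0.05 when LP1 (0.101), LP2 (0.0868) or LP3 (0.105) was left out. It fell when HP1 (0.0208) or HP3 (0.0233) was left out. Nothing is read from these p-values, because HP2 was known beforehand to be the only high ovary. On the log2(FPKM + 1) scale, which understates the change of low genes, limma gave a difference of 1.06 (adjusted p = 0.748). DESeq2 gave no p for ZP1.

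The loci beside ZP1 did not all share its pattern. MSTRG.20502, a locus carrying the PRPF19 name 99 bases away on the same strand, had 243 counts in HP2 and 0 in each of the other ovaries. LOC102094683, described as acyl-coenzyme A amino acid N-acyltransferase 1 and 700 bases away on the same strand, had 176 counts in HP2 and 0 to 41 in the others, and it was below the filter. PRPF19 itself, a pre-mRNA-processing factor on the opposite strand, had 6296 to 7929 counts in every ovary, with 6631 in HP2. CCDC86 had 171 to 288 counts, the lowest in HP2. The ZP3-described locus LOC102089886, 13509 bases from ZP1 on the same scaffold and strand, was not highest in HP2. No annotated locus overlapped any of the 8 members.

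Loci most like ZP1 over the 6 ovaries were chosen by the Pearson correlation of log2(CPM + 1) among 19232 named loci with a mean of at least 1 CPM. The first 5 were TMEM174 (799 counts in HP2 and 0 in the others), a locus with the LIMD1 name (1442 and 0), LOC110356890 (884 and 0), LOC102094065, described as the sodium-dependent neutral amino acid transporter B(0)AT3 (1287 in HP2), and SLC22A7, an organic anion transporter (619 in HP2 and at most 4 elsewhere). The lowest r of these with ZP1 was 0.999 (n = 6, Spearman's rho 0.17 to 0.83), a likeness that a single ovary sets, and 134 of the 19232 loci had r over 0.95.

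Marker lists of other tissues were read beside ZP1. Among the kidney list, SLC12A1, the sodium-potassium-chloride transporter of the nephron, had 2005 counts in HP2 and 6 to 68 elsewhere, and LRP2, the megalin receptor, had 39894 counts in HP2 and 4026 to 6513 elsewhere. Of the 10 tested kidney loci, 3 were at least 10-fold above every other ovary in HP2. In the edgeR test 3 were higher in HP at an unadjusted p under 0.05 (SLC12A1, CUBN and the SLC22A6 copy LOC102089840, adjusted p 0.592 to 0.595). This limit was passed by 8.24% of all tested loci in either direction. Without HP2 it was passed by 0 kidney loci, beside 1467 of the 28202 loci tested in that fit. None of the kidney list genes found was at 0 in all of the other ovaries. Among estrogen-induced liver genes of the chicken, APOB, the core protein of yolk lipoprotein particles, had 49140 counts in HP2, 556 in HP3, 124 in HP1 and 35 to 86 in the LP ovaries. The vitellogenin loci LOC102084298 and LOC102095151, yolk protein precursors, and the apovitellenin locus LOC102096273 had 2319, 1612 and 24 counts in HP2, and for none of them was HP2 the highest ovary. The list that holds these genes also holds the estrogen receptors ESR1 and ESR2. Of its 6 loci, 1 was higher at an unadjusted p under 0.05 in edgeR and 0 were lower, and the 1 was APOB (adjusted p = 0.581). Without HP2, APOB still passed (log2 fold change 2.35, adjusted p = 0.902 in edgeR), beside the same 1467 of 28202 loci.

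Of the 6 tested hepatocyte loci, 2 were highest in HP2 in CPM. F2, prothrombin, had 404 counts in HP2 and 33 to 73 elsewhere, and ALB, serum albumin, had 4.90 CPM in HP2 and 2.53 to 4.62 CPM elsewhere. FGA had 0 counts in HP2, and the transthyretin loci had 0 to 7 counts in any ovary. The summed level of the hepatocyte list was 729 CPM in HP2, 859 CPM in each of HP1 and HP3 and 968 to 1279 CPM in the LP ovaries, most of it from the locus that carries the APOA1 name and is described as SIK3. That locus was the 1 of the 6 tested hepatocyte loci that passed at an unadjusted p under 0.05 in edgeR, and it was lower in HP (log2 fold change −0.49, adjusted p = 0.573). ESR1, the estrogen receptor through which chicken liver responds, had 25.9 CPM in HP2 and 24.6 to 33.9 CPM elsewhere. Of the 6 tested oviduct loci, the fit placed 2 higher in HP and 4 lower (list median log2 fold change −1.31). The avidin locus LOC102095531, an egg white protein gene, had 1758 counts in HP2 and 0 to 39 elsewhere. Another avidin locus, LOC102095346, had 11604 counts in LP1 and 818 in HP2 (log2 fold change −1.95). LOC102095531 was 1 of 2 oviduct loci, of 6 tested, that were higher at an unadjusted p under 0.05 in edgeR, a limit that 8.24% of all tested loci passed in either direction. The other, the ovomucoid-described LOC102097394, was high in all HP ovaries, with 5295, 7220 and 7082 counts against 3134, 2101 and 2226 in the LP ovaries (log2 fold change 1.33, SE 0.24, adjusted p = 0.545). The part of any of these tissues in the ZP1 value of HP2 was not tested.

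**Figure D2:**
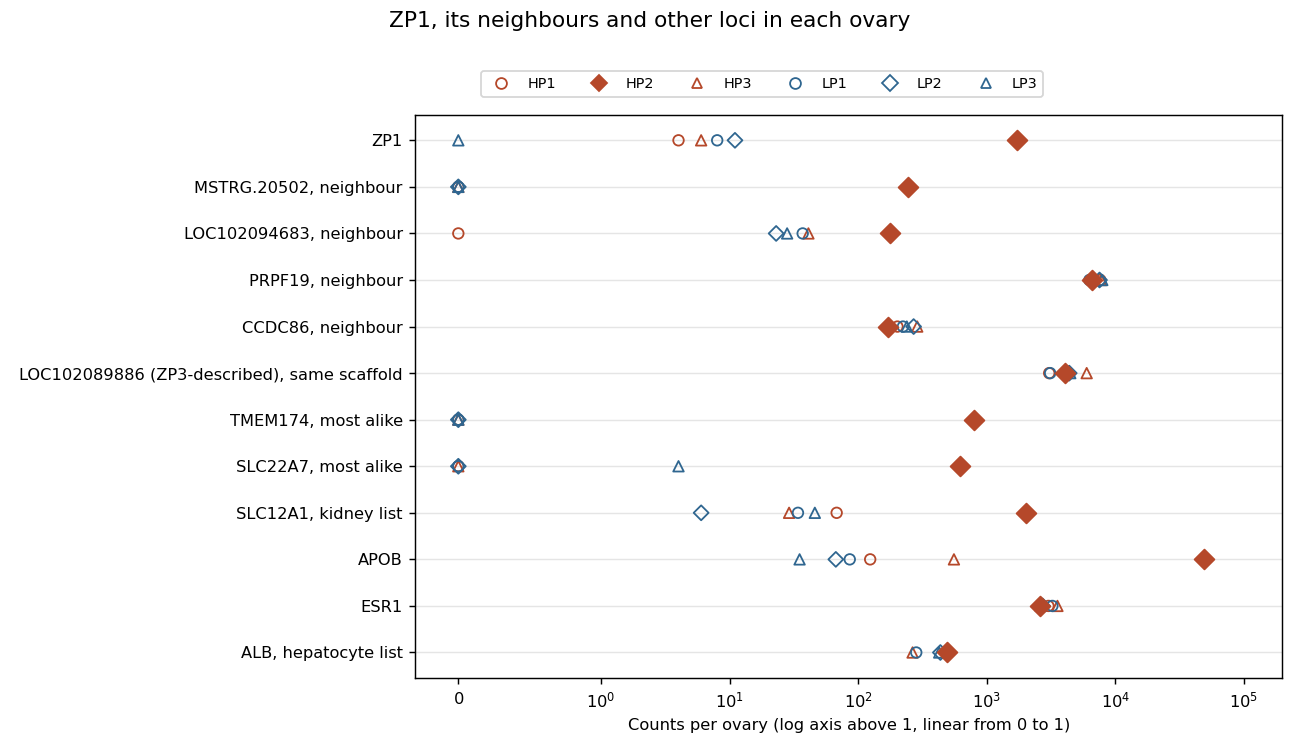
Counts in each ovary for ZP1, the loci beside it and other named loci, on a horizontal axis that is logarithmic above 1 and linear from 0 to 1. Filled diamonds are HP2, open red symbols HP1 and HP3, and open blue symbols the LP ovaries. HP2 is separate for ZP1 (1721 counts), MSTRG.20502 (243), TMEM174 (799), SLC12A1 (2005) and APOB (49140), and lies among or near the others for PRPF19, CCDC86, LOC102089886, ESR1 and ALB.

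ZP2, which in the mouse carries the main site for sperm binding, was the most counted locus of the 8 and took 0.0690% of all counts. It lies on scaffold NW_004973369.1 from 2511930 to 2517950 on the minus strand (MSTRG.11705) and holds 1 transcript. The counts were 61082, 85252 and 91500 in the HP ovaries and 65567, 52359 and 71974 in the LP ovaries. In CPM these were 555, 846 and 874 in HP and 677, 529 and 672 in LP. HP2 and HP3 were above every LP ovary, but HP1 was below LP1 and LP3, so that the groups overlapped. The group means were 758 ± 176 CPM in HP and 626 ± 84.3 CPM in LP (SD, n = 3 each). The log2 fold change was 0.28 (SE 0.20, 95% interval −0.21 to 0.76, adjusted p = 0.737 in edgeR), and the exact permutation p was 0.3. Its value moved most without HP1, to 0.46, with an unadjusted p of 0.0279 and an adjusted p of 0.528 in edgeR.

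The ZP3-described loci differed among themselves in level and in pattern. ZP3 forms the coat filaments together with a partner ZP protein. Whether the authors' counting split reads between loci of the same description could not be checked, because their sequences were not compared, so values of single ZP3-described or ZP4-described loci are given with that limit. LOC102094992, on scaffold NW_004973861.1 from 95627 to 98546 on the plus strand, had 28034, 36369 and 35365 counts in the HP ovaries and 30144, 27464 and 32616 in the LP ovaries. In CPM, HP1 was the lowest (255) and HP2 the highest (361) ovary of the 6, with LP2 at 277. The log2 fold change was 0.09 (SE 0.15, 95% interval −0.26 to 0.45, adjusted p = 0.889 in edgeR), and it was −0.01 without HP2.

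LOC102086650, on scaffold NW_004973252.1 from 846988 to 849970 on the minus strand, had 18197, 20152 and 25191 counts in the HP ovaries and 21649, 15982 and 24008 in the LP ovaries. Its group means were 202 ± 37.6 CPM in HP and 203 ± 36.1 CPM in LP (SD, n = 3 each), which differed by less than the spread within either group. The interval of its log2 fold change ran from −0.46 to 0.44.

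LOC102089886, with 3 transcripts on scaffold NW_004973678.1 from 60992 to 67495 on the minus strand, had 3063, 4059 and 5996 counts in the HP ovaries and 3117, 4386 and 4469 in the LP ovaries. The HP group held both the lowest and the highest ovary. Its log2 fold change was 0.09 (95% interval −0.57 to 0.74, adjusted p = 0.947 in edgeR), and it was −0.21 without HP3.

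LOC102095173 was the most variable of the ZP3-described loci. It lies on the same scaffold as LOC102094992, 89281 bases away, from 187828 to 191033 on the minus strand. Its counts were 1042, 755 and 577 in the HP ovaries and 367, 244 and 1161 in the LP ovaries. LP1 and LP2 were below all HP ovaries, whereas LP3 was above them all. The coefficient of variation (CV) of its CPM over the 6 ovaries was 49.5%, higher than in 82.1% of tested loci. The log2 fold change was 0.39 (SE 0.56, 95% interval −0.93 to 1.72, adjusted p = 0.869 in edgeR). LP3 decided this value, since without LP3 it was 1.26 (SE 0.36), with an unadjusted p of 0.0135 and an adjusted p of 0.610 in edgeR. This was past the limits of p and fold, which 953 of the 28309 loci tested in that fit passed. Leaving out the 1 LP ovary above all HP ovaries separates the groups by itself, so nothing is read from this p.

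The ZP4-described loci had the most even values of the 8. ZP4 is a relative of ZP1 and takes part in sperm binding in some mammals. LOC102095495, on scaffold NW_004973223.1 from 1059027 to 1064683 on the plus strand, had 22874, 25043 and 27354 counts in the HP ovaries and 24106, 20144 and 25609 in the LP ovaries. LOC110356786, on the small scaffold NW_004987906.1 from 1089 to 1931 on the plus strand, had 871, 818 and 765 counts in the HP ovaries and 896, 773 and 816 in the LP ovaries. The highest ovary was 1.28-fold the lowest in LOC102095495 and 1.27-fold in LOC110356786. The CV was 10.1% for LOC102095495 and 8.40% for LOC110356786, and the median CV of tested loci was 23.5%. Their log2 fold changes were 0.05 (95% interval −0.26 to 0.37) and −0.08 (95% interval −0.50 to 0.34), with adjusted p of 0.931 and 0.922 in edgeR.

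Across the 7 loci other than ZP1, the log2 fold changes lay between −0.08 and 0.39 with adjusted p from 0.737 to 0.995 in edgeR. In CPM, HP3 was the highest ovary for 4 of the 7 and LP2 the lowest for 4, while HP1 was the lowest for 2. The intervals of ZP2, LOC102094992, LOC102086650, LOC102089886, LOC102095495 and LOC110356786 all stayed within a log2 change of 1 in either direction, and that of LOC102095173 did not.

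**Figure D3:**
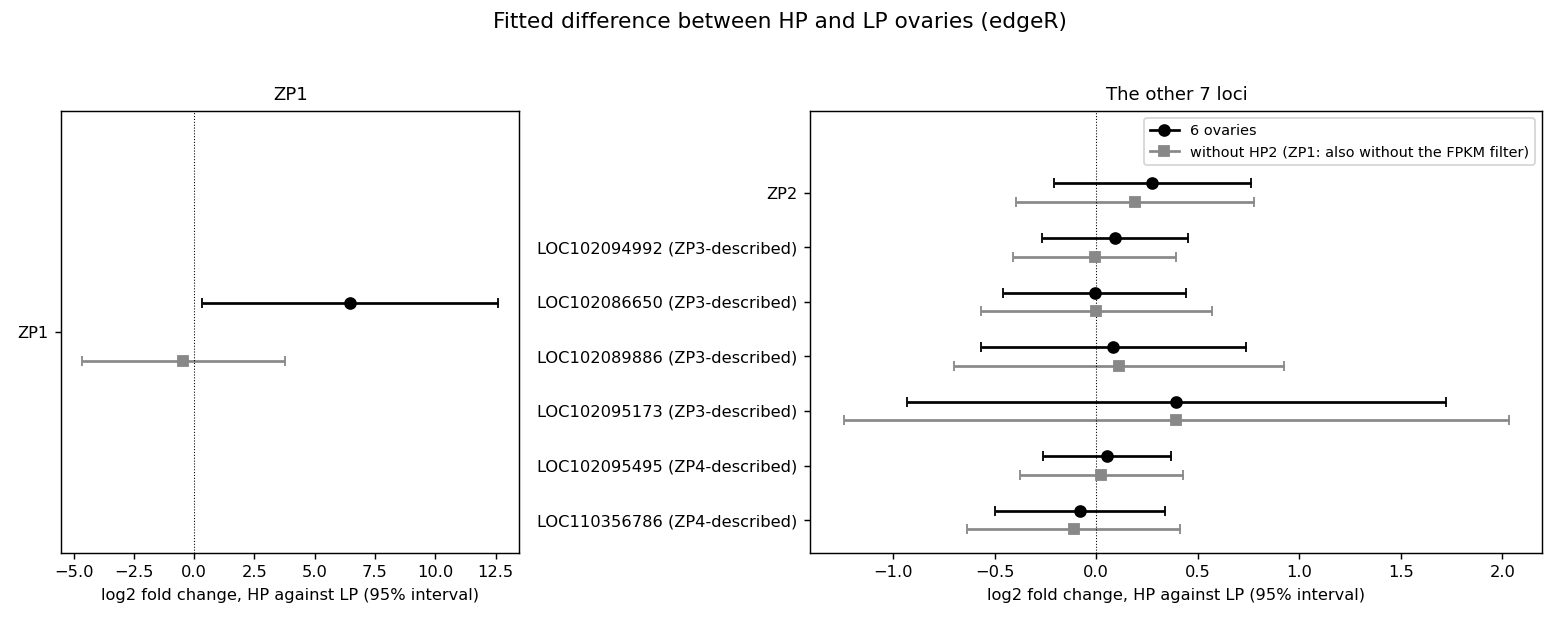
Log2 fold change of each locus between HP and LP ovaries with its 95% interval (edgeR), for all 6 ovaries (black circles) and without HP2 (grey squares, for ZP1 also without the filter on FPKM). The dotted line marks 0. ZP1 goes from 6.46 to −0.45 without HP2, while the other 7 loci move little and their intervals include 0.

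Levels can be compared between loci only per length, and the order depended on the length used. By the authors' FPKM, the mean over the 6 ovaries was 2218 ± 483 for ZP2, 297 ± 31.3 for LOC102095495, 152 ± 20.6 for LOC102094992, 115 ± 18.6 for LOC102086650, 48.6 ± 12.3 for LOC102089886, 25.6 ± 12.7 for LOC102095173, 3.14 ± 0.256 for LOC110356786 and 1.43 ± 3.45 for ZP1 (SD, n = 6). The ratio of count to FPKM, however, corresponds to a length of 313 bases for ZP2, whose genomic span is 6021 bases, and of 258 bases for LOC102095173, whose span is 3206 bases. For LOC110356786 the same ratio gave 2549 bases, longer than its span of 843 bases. By CPM per kilobase of genomic span, ZP2 (115 ± 23.8) and LOC102094992 (105 ± 13.2) overlapped over the ovaries, with ranges of 87.8 to 145 and 87.3 to 124. They were followed by LOC102086650 (67.9 ± 11.0) and LOC102095495 (41.5 ± 4.19), which did not overlap their neighbours. LOC110356786 (9.49 ± 0.798) and LOC102089886 (6.24 ± 1.58) overlapped, and LOC102095173 (2.06 ± 1.02) was below both. ZP1 had the lowest mean on both scales, but its value in HP2 (5.34 CPM per kilobase) was within the range of LOC102089886.

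The summed level of the oocyte list differed between ovaries, and ZP2 was high and low in the same ovaries as this sum. The summed level of 13 oocyte list loci was 1419, 1961 and 2035 CPM in the HP ovaries and 1585, 1258 and 1597 CPM in the LP ovaries. The group means were 1805 ± 336 CPM in HP and 1480 ± 192 CPM in LP (SD, n = 3 each), with an exact permutation p of 0.3. HP2 and HP3 were the highest ovaries by this sum, as they were for ZP2. ZP2 divided by the sum was 0.391, 0.432 and 0.429 in the HP ovaries and 0.427, 0.420 and 0.421 in the LP ovaries. Its CV fell from 20.7% in CPM to 3.51% in the ratio, a value that 2 of the 28274 tested loci undercut and whose median over tested loci was 30.7%. KPNA7, the oocyte importin, made up 31.1% of the sum, and without it the CV of the ZP2 ratio was 5.69%. Single loci of the list followed ZP2 to very different degrees. Pearson's r with ZP2 was 0.98 for KPNA7, 0.91 for DDX4 and 0.85 for CPEB1, but 0.27 for BMP15, 0.41 for MOS, 0.57 for the histone H1oo locus LOC102087232 and 0.58 for PIWIL1, with a median of 0.74 over the 13 loci (n = 6, a description). The CV of ZP2 divided by a single list locus was 5.10% for KPNA7 and 87.2% for the locus shared by ZAR1 and SLC10A4. The ratio was computed after the values were seen, and the part of oocyte content in the ZP2 difference between groups was not tested further.

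Divided by the same sum, the HP and LP values of 3 loci did not overlap, and all 3 ratios were lower in HP. Their log2 fold changes on the CPM scale were 0.09, −0.01 and 0.05, while the shared denominator, chosen after the values were seen, was higher in HP by 0.29 on the log2 scale, so the common direction of the ratios follows that denominator. LOC102094992 had ratios of 0.180, 0.184 and 0.166 in the HP ovaries and of 0.196, 0.220 and 0.191 in the LP ovaries. LOC102086650 had ratios of 0.102 to 0.118 in HP and 0.128 to 0.141 in LP. LOC102095495 had ratios of 0.127 to 0.147 in HP and 0.150 to 0.162 in LP. The exact permutation p was 0.1 for each, the smallest that 3 against 3 allow, and on this scale 12.4% of tested loci had groups that did not overlap. The groups still did not overlap when KPNA7 was left out of the sum, and the log2 differences without HP2 were −0.23, −0.22 and −0.18. On the CPM scale the groups overlapped for all 3. The ratios of ZP1, ZP2, LOC102089886, LOC102095173 and LOC110356786 overlapped.

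**Figure D4:**
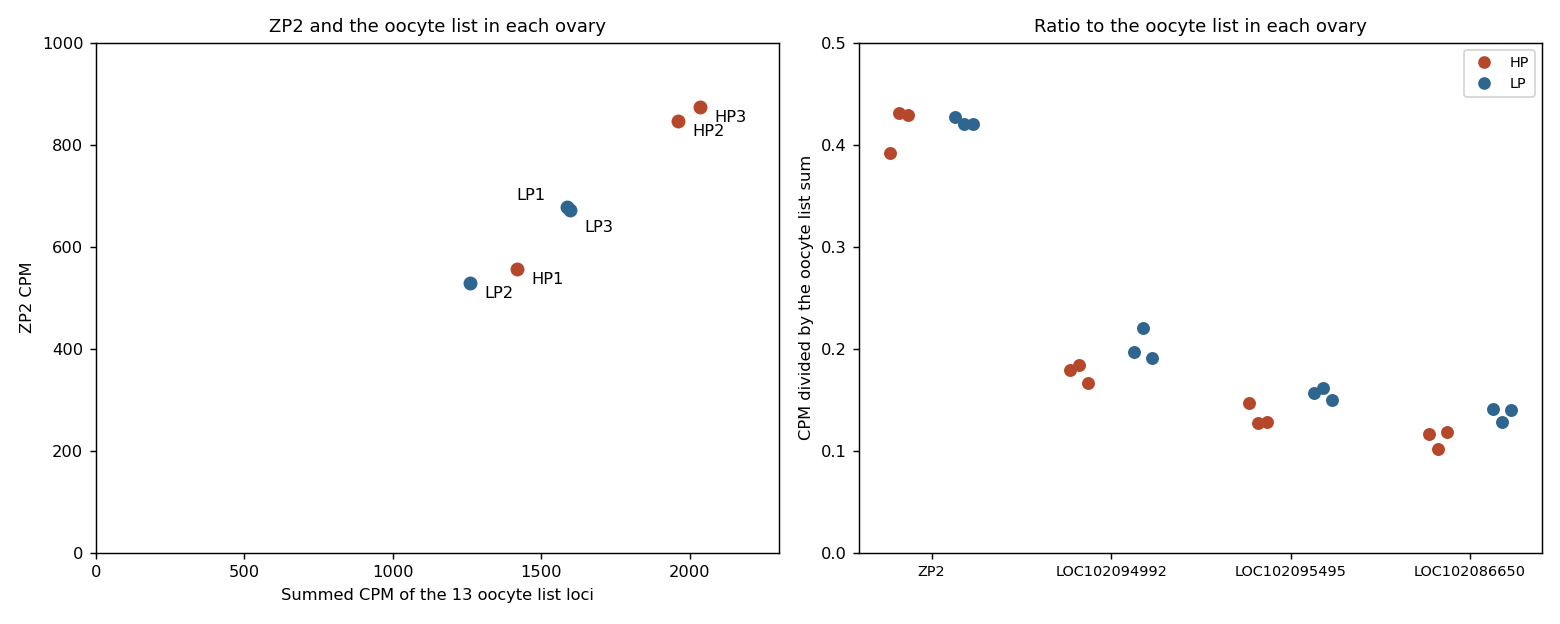
Left, ZP2 in CPM against the summed CPM of 13 oocyte list loci, 1 point per ovary (red HP, blue LP). Right, CPM of 4 egg coat loci divided by that sum in each ovary. ZP2 stays between 0.391 and 0.432 in all 6 ovaries, while the HP points of LOC102094992, LOC102095495 and LOC102086650 lie below their LP points.

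The named loci most like the members over the 6 ovaries differed from member to member (Pearson's r of log2(CPM + 1), given as a description with n = 6 libraries that share their depth scaling). ZP2 was followed most closely by TP63, a p53-family factor that guards oocyte DNA in the mouse (r = 0.997, rho = 0.94), with 15931, 23768 and 24489 counts in the HP ovaries and 17860, 14092 and 19450 in the LP ovaries. NUP58, MCF2, NELFB and LOC110358875 came next (r = 0.99 each). LOC102095173 was most like RNF182 and SEMA7A (r = 0.99 each), which both had their highest value in LP3 and their lowest in LP2. LOC110356786 was most like LOC110358952 and EIF2AK2, the interferon-induced double-stranded RNA kinase (r = 0.99 each). Its first 5 also held LOC102092918, described as interferon alpha-inducible protein 6, with 445 counts in LP1 and 50 to 196 elsewhere. LOC110356786 itself varied only 1.27-fold, with LP1 highest. Of 19232 loci compared, 86 had r over 0.95 with ZP2, 28 with LOC102095173 and 37 with LOC110356786.

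For the remaining ZP3-described and ZP4-described loci the first match was SFRP1, a secreted Wnt antagonist, for LOC102094992 (r = 0.99), RIMS1 for LOC102086650 (r = 0.99), LOC102083831 for LOC102089886 (r = 0.99) and ERICH5 for LOC102095495 (r = 0.99). Among the members themselves, ZP2 was most alike with LOC102094992 (r = 0.93, rho = 0.89) and LOC102095495 (r = 0.93, rho = 0.94), and LOC102086650 with LOC102095495 (r = 0.94, rho = 0.83). The highest r with any other member was 0.23 for LOC102095173 and 0.11 for LOC110356786. LOC110356786 ran opposite to LOC102089886 (r = −0.64, rho = −0.77).

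The other genes of the egg coat were read from lists, in which no locus was called at an adjusted p under 0.05 in edgeR. ZPAX, a further egg coat protein of birds and frogs, had 12504, 18418 and 20117 counts in the HP ovaries and 16174, 11526 and 13037 in the LP ovaries, with a log2 fold change of 0.27 (SE 0.24, adjusted p = 0.778 in edgeR), close to the value of ZP2. Of 5 loci for transcription factors of oocyte genes, 1 was higher at an unadjusted p under 0.05 in edgeR and 0 were lower. The list median log2 fold change was 0.16, against −0.01 for all tested loci, of which 8.24% passed that p limit in either direction. The locus that passed was LHX8, an oocyte homeobox factor, with 92.6, 148 and 114 CPM in the HP ovaries and 79.8, 69.3 and 73.0 CPM in the LP ovaries (log2 fold change 0.67, SE 0.18, adjusted p = 0.572 in edgeR). The NOBOX locus (shared with ARHGEF5) and the separate loci of TCF3, TCF12 and TAF4B did not pass.

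Of the 13 oocyte list loci, 3 were higher at an unadjusted p under 0.05 in edgeR and 0 were lower (list median log2 fold change 0.26), beside 8.24% of all tested loci that passed this limit in either direction. The 3 were ZAR1L, PIWIL1 and TDRD1 (adjusted p 0.572 to 0.586). ZAR1L, a maternal RNA-binding protein, had 224, 300 and 213 CPM in the HP ovaries and 177, 146 and 166 CPM in the LP ovaries, so that the groups did not overlap. Without HP2, 1 of the 13 passed, ZAR1L, beside 1467 of the 28202 loci tested in that fit. Among 8 tested loci for egg coat processing and sperm contact, 2 were higher at that limit and 0 were lower (list median 0.05). One was LOC102091120, described as an astacin-like metalloendopeptidase, the family whose mouse oocyte member cleaves ZP2 after fertilisation, with 518, 1035 and 927 counts in the HP ovaries and 404, 323 and 329 in the LP ovaries (log2 fold change 1.18, SE 0.33, adjusted p = 0.572 in edgeR, and 0.95 without HP2). The other was ZPBP, an acrosomal protein that binds the zona in the mouse, at 36 to 97 counts in HP and 24 to 30 in LP. A further astacin-like locus, LOC102093192, had 19, 147 and 173 counts in the HP ovaries and 4, 306 and 22 in the LP ovaries (log2 fold change −0.02). The astacin-like LOC110357274 was below the filter. Without HP2, 1 locus of this list passed, LOC102091120, and ZPBP did not. The number past the limits of p and fold went from 2 to 0, and over all tested loci from 880 of 28274 to 702 of 28202. Of 8 tested loci for other proteins with a ZP domain, such as TGFBR3, ENG and the locus shared by TECTA and TBCEL, 0 passed in either direction (list median −0.13).

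Of 10 granulosa loci, 0 passed at an unadjusted p under 0.05 in edgeR (list median −0.17), beside 8.24% of all tested loci in either direction. The summed level of the granulosa loci was 437 to 908 CPM in HP and 667 to 853 CPM in LP. Of 7 theca and stroma loci, 0 were higher and 2 were lower, COL1A1 (log2 fold change −0.72) and DCN (−0.53), both matrix proteins. Without HP2, where 1467 of 28202 tested loci passed, 0 of these 7 did. Their summed level was 939 to 1425 CPM in HP and 1296 to 2838 CPM in LP. In LP2, the ovary with the highest sum, MYH11 alone gave 1221 CPM and ACTA2 633 CPM. PDGFRA had group means of 175 CPM in HP and 182 CPM in LP. Of the adrenal and blood lists 0 loci passed. The part of these cells in the values of the egg coat loci was not tested.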

How the data were processed

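Ovaries of 3 HP and 3 LP pigeons were compared, grouped by the sample titles, with each ovary from a separate bird. The authors cleaned reads with Cutadapt 1.9, checked them with FastQC 0.10.1, aligned them against the Cliv_1.0 assembly (Bowtie2, HISAT2 2.0.4) and assembled and quantified transcripts with StringTie 1.3.4 and Ballgown, and edgeR is also named in the submitters' notes. What the authors deposited are integer counts and FPKM values of each locus. In every library but LP2 the total of these counts was above the number of raw reads that the authors report. A count therefore need not stand for a single read. How counts were made, and whether strand was used, is not given in the sources used here. All 12 value columns were used and 0 were left out.

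The 28274 loci whose FPKM averaged 0.1 or more were fitted together, leaving out 6072, on the deposited counts with edgeR 4.0.16 in R 4.3.3 (TMM, quasi-likelihood, two-sided, no covariates, Benjamini-Hochberg). DESeq2 1.42.0 and limma 3.58.1 were alternatives, and the fits were tested on simulated data. The numbers 1 to 3 and 4 to 6 pair no birds. Exact permutation tests used the difference of mean log2(CPM + 1), or of mean log2(1000 × ratio + 1) for ratios to the oocyte list. Python 3.11.15 with pandas 2.3.3, scipy 1.17.1 and matplotlib 3.10.9 made the summaries.

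Named were all members, loci of 13 gene lists (92 of 118 genes were found, 30 of 104 loci through their descriptions after the table was seen) and, per member, the 5 named loci with the highest Pearson r. The 4 nearest loci were named where their values are given. Members and lists were chosen with earlier results of these data known. Of the members, 7 matched the RefSeq gene table of assembly bColLiv1.pat.W.v2, which was used for names only.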

Additional observations from a re-analysis of the deposited data

How the results depend on the processing

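Over 14 alternatives, 96 of 111 log2 fold changes of the 8 loci kept their direction, 15 reversed, and none reached an adjusted p under 0.05 in edgeR, DESeq2 or limma. ZP1 reversed to −0.45 without HP2 and without the filter on FPKM. LOC102094992 then also reversed, to −0.0081. LOC102086650, at −0.01, reversed with library totals (0.013) and in limma on log2(FPKM + 1) and log2(FPKM + 0.1) (0.036 each). Leaving out 1 ovary at a time gave log2 fold changes of 5.87 to 7.11 for ZP1 (with HP2 kept, since ZP1 could not be fitted without it), 0.16 to 0.46 for ZP2, −0.0065 to 0.23 for LOC102094992, −0.15 to 0.12 for LOC102086650, −0.21 to 0.31 for LOC102089886, 0.03 to 1.26 for LOC102095173, −0.029 to 0.15 for LOC102095495 and −0.13 to 0.014 for LOC110356786. The number of members past the limits of p and fold was 1 with all ovaries. It was 0 with DESeq2, which gave no p for ZP1, and with limma at either pseudocount. It was also 0 without HP2, without LP1, without LP2 and without both HP2 and the filter. Its range over single ovaries left out was 0 to 1 (without LP3 the 1 was LOC102095173, not ZP1, beside 953 of 28309 tested loci). DESeq2 called 1 gene list locus at an adjusted p under 0.05, the ovomucoid-described LOC102097394 (0.00021), where edgeR called 0. The gene list loci past the limits, ZP1 and ZP2 aside, were 8 with all ovaries, from lists of 104 loci of which some were not tested. Over all tested loci, 880 of 28274 (3.11%) passed. In limma 4 list loci passed at either pseudocount, beside 854 and 904 of 28274. Without HP2 and the filter 2 passed, beside 895 of 34185. Over single ovaries left out the number ran from 2 without HP2 to 11 without HP3, beside 702 of 28202 and 1046 of 28255. Nothing is read from these counts, because the lists were chosen with earlier results known. Over all tested loci, DESeq2 called 385 at an adjusted p under 0.05 and edgeR 3, and limma called 6 with a pseudocount of 1 and 7 with 0.1. The cause of these shifts was not tested. No paired analysis was possible because the HP and LP ovaries share no replicate number. With 3 ovaries per group, how far the spread between birds or the depth limits the comparison was not tested. Counts of ZP1 outside HP2 were 0 to 11, while the lowest count of any other member was 244. Whether loci of the same description share reads could not be checked without their sequences.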

Other observations

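Of 27 loci that neighbour the members, 24 were tested and 0 were called at an adjusted p under 0.05 in edgeR. An unadjusted p under 0.05 was found for 3 of the 24, beside 8.24% of all tested loci. GIF, the gastric intrinsic factor that carries vitamin B12, lies 87 bases from LOC102089886 on the opposite strand. It had 115, 71 and 138 counts in the HP ovaries and 251, 210 and 244 in the LP ovaries (log2 fold change −1.19, adjusted p = 0.564 in edgeR), so that all HP ovaries were lower, whereas LOC102089886 itself overlapped between the groups. ANKS4B, a microvillus scaffold protein 3181 bases from ZP2, had 306 counts in HP2, 50 and 73 in HP1 and HP3 and 15 to 25 in LP. The unnamed locus MSTRG.3107, 12058 bases from the ZP4-described LOC102095495, had 438 and 454 counts in HP1 and HP3, 37 in HP2 and 14 to 42 in LP.

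Nearer to LOC102095495, at 4802 bases, lies LOC102098038, described as cytochrome P450 2C9-like, a family that oxidises steroids, fatty acids and drugs. It was chosen after its values were seen. Its counts were 243, 204 and 218 in the HP ovaries and 18, 33 and 24 in the LP ovaries. All 3 HP ovaries were far above the LP ovaries, and HP2 was not apart from the other HP ovaries. The locus was not among the tested loci, because its mean FPKM was 0.0403 in spite of these counts. In the fit without a filter its log2 fold change was 3.08 (SE 0.33, adjusted p = 0.124 in edgeR). LOC102095495 itself differed between the groups by a log2 fold change of 0.05.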
